A study of Oryza sativa with 6 samples.

Results

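Heat shock genes were examined in RNA-seq libraries from rice (Oryza sativa) anthers. The genes were 9 rows of the deposited expression table, of 94013 rows in all, chosen by identifier: 6 genes for small heat shock proteins, the gene for the large chaperone HSP101, and 2 genes for heat stress transcription factors. The libraries came from 2 genotypes with 3 libraries each, wild type and the dmd1 mutant, from plants that were 3 months old. Anthers of both genotypes were taken from tetrads up to early microspores, when the tapetum, the inner wall layer, feeds the developing spores. The labels name dmd1 by its mutant symbol, without the allele, the parent cultivar or a growth temperature, and no heat treatment is named for either genotype. Values are FPKM, fragment numbers scaled by transcript length and by the mapped total of the library, so levels can be compared between genes.

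Small heat shock proteins bind proteins that have begun to unfold and hold them in a state from which they can be refolded. HSP101, a ring-shaped ATPase of the ClpB class, pulls proteins out of aggregates together with HSP70, and is needed in plants for survival of severe heat after acclimation. Heat stress transcription factors bind heat shock elements in promoters and switch both groups of genes on. Several of these chaperones are also made without heat during reproductive development, and anthers around meiosis and the microspore stage are among the plant tissues most easily damaged by heat.

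The symbols came with the gene list and the table gives identifiers only. The RefSeq gene table (assembly ASM3414082v1), of whose entries only 1 carries an identifier of the expression table, did not pair the symbols with these identifiers. In its gene order the genes known as HSP17.4, HSP18.0 (also HSP18.1) and HSP17.7 are direct neighbours on chromosome 3, with HSP18.0 in the middle, whereas the list gives the middle identifier, OS03G0267000, the symbol HSP17.7. The symbols of OS03G0267000 (listed as HSP17.7) and OS03G0267200 (listed as HSP18.0) may therefore be exchanged. The RefSeq table also gives the symbol HSP18.0 to a gene on chromosome 1, so the symbols do not settle this. OS03G0854500 is listed as HSFA2A, a symbol that general rice nomenclature gives to OS03G0745000. Genes are therefore called by their identifiers below. The small heat shock protein genes on chromosome 3, and OS01G0136100 (HSP16.9A) and OS01G0136200 (HSP16.9B), are members of a family of similar sequences. RSEM, named in the submitters' processing notes, divides fragments that match several genes by a statistical estimate, so their separate levels are uncertain.

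The clearest difference between the genotypes was in OS03G0266900 (HSP17.4), a cytosolic small heat shock protein gene. In wild-type libraries 1, 2 and 3 its level was 1.53, 2.81 and 1.96 FPKM, and in the dmd1 libraries of those numbers 16.4, 14.4 and 6.18 FPKM. Each dmd1 library lay above each wild-type library, and dmd1 library 3 was the lowest of the mutant libraries. The mean rose from 2.10 ± 0.651 to 12.3 ± 5.39 FPKM (SD, n = 3), a 5.86-fold rise in the mean. On the log2(FPKM + 1) scale the change was 2.02 ± 0.36 (SE, limma adjusted p = 0.0202), with a 95% interval from 1.15 to 2.89. OS03G0266900 went from the 17.2th percentile of tested rows by mean level in wild type to the 57.4th in dmd1. Its adjusted p missed 0.05 when wild-type library 1 (0.0814) or 3 (0.0714) was left out, and likewise for dmd1 library 1 (0.0542) or 2 (0.0821). The log2 change over the fits that left out 1 library ran from 1.78 to 2.42.

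**Figure D1:**
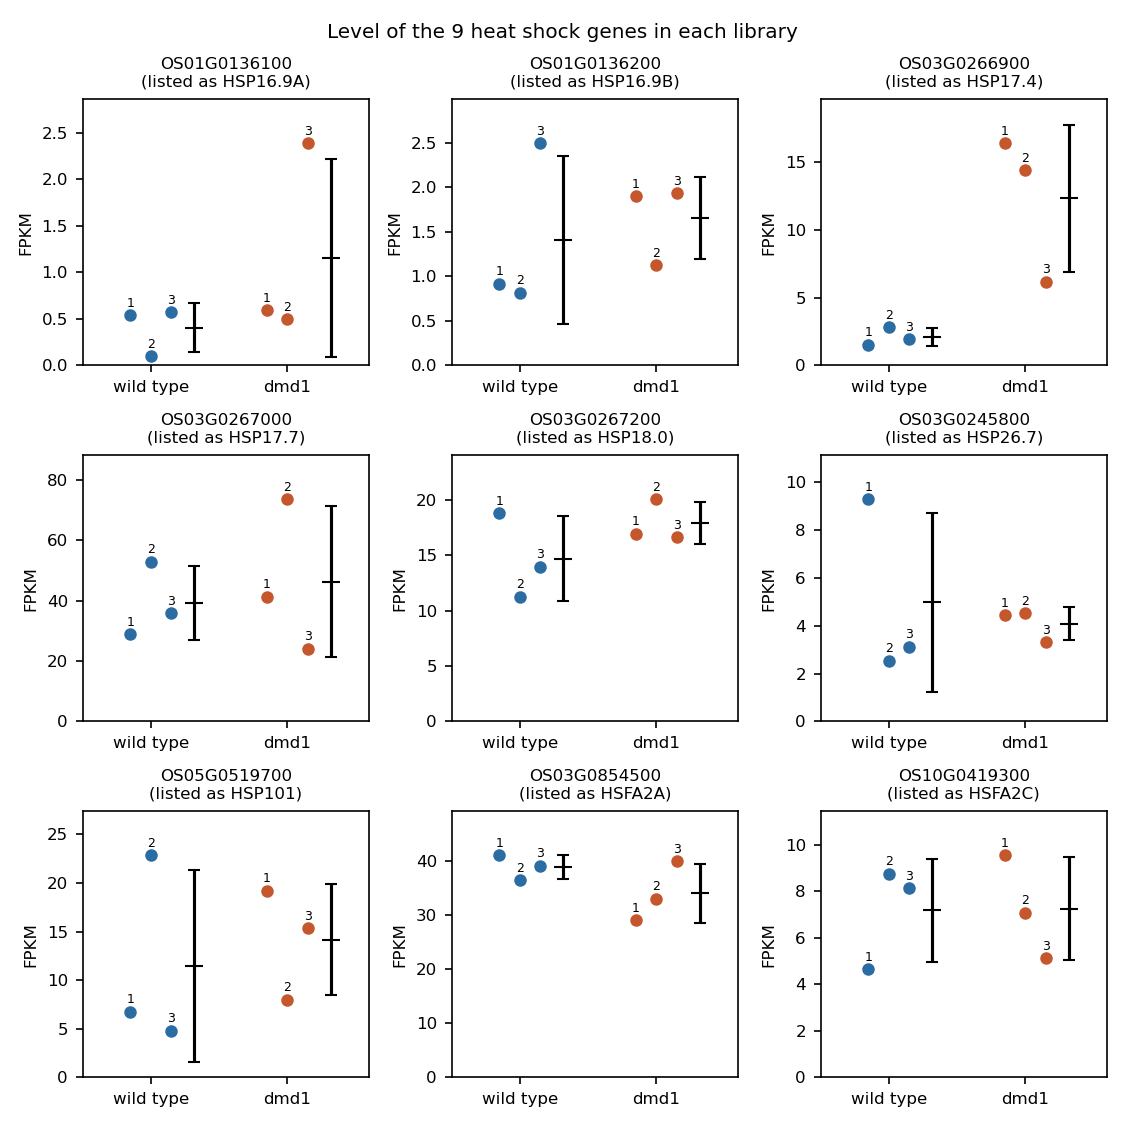
FPKM (vertical axes, linear, from 0, a separate scale per panel) of the 9 genes in 3 wild-type (blue) and 3 dmd1 (orange) libraries, numbered as in the labels, with the mean and SD of each genotype in black. The genotypes do not overlap for OS03G0266900, and they overlap for the other 8 genes.

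Of the 9 genes, 8 were tested, since OS01G0136100 did not reach 1 FPKM in 3 libraries. OS03G0266900 was the 1 gene called higher and none was called lower, where a call needed a log2 change of 1 or more in size together with an adjusted p below 0.05 in limma. Of all 25474 tested rows 6.71% were called, 3.16% as higher and 3.54% as lower. Rises made up 47.2% of the calls, and 62.9% or 35.4% when libraries were scaled to equal FPKM totals or by median-of-ratios size factors. The genotypes did not overlap for 1 of the 8 tested heat genes, against 38.4% of all tested rows. The median log2 change of the 8 genes was 0.17, beside 0.12 for all tested rows.

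OS03G0267000 (listed as HSP17.7) and OS03G0267200 (listed as HSP18.0), chromosome 3 relatives of OS03G0266900, were the most abundant small heat shock protein genes of the 6 in both genotypes. Small heat shock protein genes outside the 6 reached similar levels, such as OS03G0266300 (HSP17.9A), with means of 20.5 FPKM in wild type and 26.4 FPKM in dmd1. OS03G0267000 measured 28.9, 52.8 and 35.8 FPKM in the wild-type libraries and 41.3, 73.5 and 24.08 FPKM in the dmd1 libraries. The highest and the lowest of its 6 values both belonged to dmd1, in libraries 2 and 3. Its log2 change was 0.14 ± 0.42 (SE, limma adjusted p = 0.85), and the 95% interval from -0.87 to 1.15 leaves room for a change in either direction. OS03G0267200 measured 18.802, 11.3 and 14.0 FPKM in wild type and 16.95, 20.04 and 16.6 FPKM in dmd1. Wild-type library 1 lay within the mutant range, and the other wild-type libraries lay below it. The log2 change of OS03G0267200 was 0.29 ± 0.20 (SE, limma adjusted p = 0.362; 95% interval -0.18 to 0.77).

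A ratio of 2 genes within a library does not depend on how libraries are scaled, and it was taken for these relatives after their values were seen. OS03G0266900 stood at 0.0531, 0.0532 and 0.0546 of the FPKM of OS03G0267000 in wild-type libraries 1, 2 and 3. In dmd1 libraries 1, 2 and 3 the ratio was 0.396, 0.195 and 0.257. The wild-type ratios were nearly the same although OS03G0267000 itself varied 1.83-fold between those libraries, while the dmd1 ratios were all higher and more spread. Against OS03G0267200 the wild-type ratios were less even, at 0.0816, 0.249 and 0.14. The dmd1 ratios to OS03G0267200 were 0.965, 0.717 and 0.371, again all higher. The mean ratio to OS03G0267000 was 0.0537 ± 0.00083 in wild type and 0.283 ± 0.10 in dmd1 (SD, n = 3). On log2 ratios the exact two-sided permutation p was 0.1, the smallest that 3 against 3 libraries can give. OS03G0266900 alone already separated the genotypes, so the separation of the ratio was largely set by the choice of gene. That p is therefore not independent support for a difference. Whether fragments shared between these similar genes entered the near-constant wild-type ratio was not tested.

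The 6 small heat shock protein genes together summed to 59.9, 70.4 and 57.9 FPKM in wild type and to 81.6, 114 and 54.5 FPKM in dmd1. The sums overlapped between genotypes, because dmd1 library 3 had the lowest sum of all (exact two-sided permutation p = 0.4 on log2 sums for 3 against 3 libraries). OS03G0267000 made up 44.2% to 75.1% of the sum in the 6 libraries. The share of OS03G0266900 was 2.56%, 3.99% and 3.38% in wild type and 20.1%, 12.6% and 11.3% in dmd1. This share follows largely from the rise of OS03G0266900 itself. Its exact two-sided permutation p on log2 shares was 0.1, which is not separate support for that rise.

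**Figure D2:**
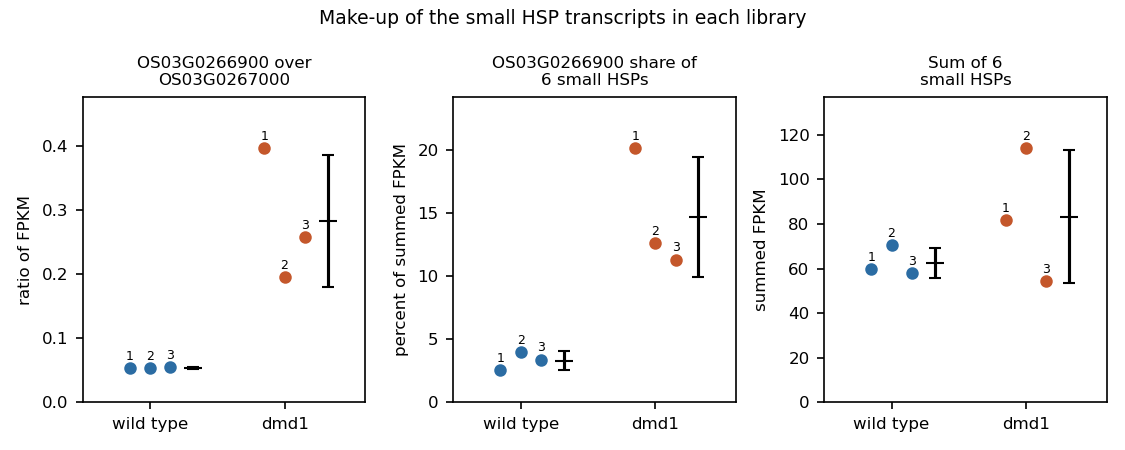
Ratio of OS03G0266900 to OS03G0267000 (left), percent of the summed FPKM of 6 small heat shock protein genes taken by OS03G0266900 (middle) and that sum in FPKM (right), for 3 wild-type (blue) and 3 dmd1 (orange) libraries with mean and SD in black. The ratio and the share do not overlap between genotypes, whereas the sum does, with dmd1 library 3 lowest at 54.5 FPKM.

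OS01G0136200 (HSP16.9B), another cytosolic small heat shock protein gene, was low in both genotypes, at 0.919, 0.819 and 2.496 FPKM in wild type and 1.91, 1.13 and 1.94 FPKM in dmd1. Its highest value was in wild-type library 3, and its log2 change was 0.19 ± 0.30 (SE, limma adjusted p = 0.706; 95% interval -0.53 to 0.92). OS01G0136100 (HSP16.9A) was lower still, at 0.54, 0.101 and 0.569 FPKM in wild type and 0.59, 0.496 and 2.39 FPKM in dmd1. Its higher dmd1 mean came from dmd1 library 3, while the other mutant libraries lay at the level of wild-type libraries 1 and 3. In a fit without the filter on low values its log2 change was 0.53 ± 0.35 (SE, limma adjusted p = 0.417).

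OS03G0245800 (HSP26.7), whose small heat shock protein is sent to the chloroplast, measured 9.28, 2.53 and 3.13 FPKM in wild type and 4.44, 4.53 and 3.30 FPKM in dmd1. Wild-type library 1 stood apart from the other 5 libraries, which lay between 2.53 and 4.53 FPKM. The log2 change was -0.07 ± 0.41 (SE, limma adjusted p = 0.927; 95% interval -1.06 to 0.91), and without wild-type library 1 it was 0.41 (limma adjusted p = 0.301). Among 8 marker genes of green tissue 7 were tested, 1 was called lower and none higher. The summed levels of the markers were 184 to 328 FPKM in wild type and 118 to 185 FPKM in dmd1. The called gene, OS01G0600900, was the most abundant of them, with means of 157 FPKM in wild type and 48.1 FPKM in dmd1. For the other tested markers the genotypes overlapped. The part of the markers in the values of OS03G0245800 was not tested.

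On the log2(FPKM + 1) scale OS05G0519700 (HSP101) varied more within the genotypes than the other 8 genes. It measured 6.75, 22.8 and 4.79 FPKM in wild-type libraries 1, 2 and 3, and in the mutant libraries 19.2, 8.01 and 15.3 FPKM. The highest value of all was in wild-type library 2, so the genotypes overlapped, and the highest and lowest wild-type libraries differed 4.76-fold. By that fold the low gene OS01G0136100 varied more, at 5.63 in wild type. In dmd1 the fold was 2.40 for OS05G0519700 and larger for OS01G0136100 (4.81), OS03G0267000 (3.05) and OS03G0266900 (2.65). The within-genotype SD of OS05G0519700 was 0.87 on the log2(FPKM + 1) scale, above that of 96.6% of tested rows. The mean was 11.5 ± 9.90 FPKM in wild type and 14.2 ± 5.68 FPKM in dmd1 (SD, n = 3), and the log2 change came to 0.49 ± 0.57 (SE, limma adjusted p = 0.602). The 95% interval of that change, from -0.88 to 1.86, leaves room for a change in either direction. Without wild-type library 2 the log2 change was 1.10 with an adjusted p = 0.113 in limma, still short of a call.

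OS03G0854500 (listed as HSFA2A) was the steadiest of the 9 genes, with a within-genotype SD of 0.17 log2 units. It measured 41.1, 36.5 and 39.2 FPKM in wild type and 29.2, 33.1 and 40.0 FPKM in dmd1. Mutant libraries 1 and 2 lay below every wild-type library and mutant library 3 lay among them. The log2 change was -0.20 ± 0.15 (SE, limma adjusted p = 0.407), and its 95% interval, from -0.55 to 0.15, leaves out a change by 1 log2 unit in either direction. OS10G0419300 (HSFA2C) is listed with the class A heat factors, which typically activate transcription, while the RefSeq entry that carries the symbol HSFA2C is annotated as a transcribed pseudogene in that assembly. It measured 4.65, 8.76 and 8.14 FPKM in wild type and 9.54, 7.08 and 5.13 FPKM in dmd1. The ranges of the genotypes nearly coincided, and the log2 change was 0.02 ± 0.29 (SE, limma adjusted p = 0.975; 95% interval -0.68 to 0.71). OS03G0745000, the identifier that general nomenclature calls HSFA2A, lay far below both, at 0.054, 0.101 and 0.1 FPKM in wild type and 0.464, 0.343 and 0.413 FPKM in dmd1. The genotypes did not overlap, but every value was under the filter of 1 FPKM. In the fit without that filter its log2 change was 0.37 ± 0.07 (SE, limma adjusted p = 0.0316). On the log2(FPKM + 1) scale values that all lie under 1 FPKM cannot differ by 1 log2 unit. The fold limit for a call could therefore not be met. The mean of OS03G0745000 was 0.085 FPKM in wild type and 0.407 FPKM in dmd1, a ratio of 4.78 between very low values.

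**Figure D3:**
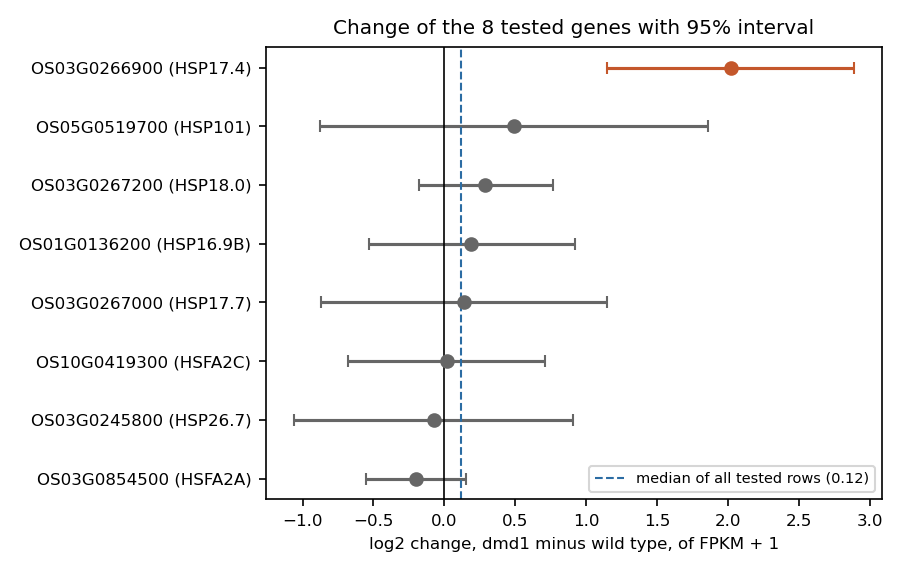
Log2 change of FPKM + 1 (horizontal axis, dmd1 minus wild type) of the 8 tested genes with 95% intervals from limma, and the median of all tested rows, 0.12, as a dashed line. The interval of OS03G0266900, called higher in dmd1 and drawn in orange, runs from 1.15 to 2.89, and the other 7 intervals contain 0.

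By mean level, OS03G0267000 and OS03G0854500 led in both genotypes, at 39.2 and 38.9 FPKM in wild type and 46.3 and 34.1 FPKM in dmd1, and their ranges overlapped in each genotype. OS03G0267200 and OS05G0519700 came next, also with overlapping ranges, and OS01G0136200 and OS01G0136100 were last. In wild type OS03G0266900 ranked 7 of the 9 genes, with values that overlapped those of OS03G0245800 above it and OS01G0136200 below it. In dmd1 it ranked 5, between OS05G0519700 and OS10G0419300, and its range overlapped both.

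The libraries also differed in ways that genotype did not account for, and no label names a batch. The first axis of spread within genotypes held 58.2% of that variance and set wild-type library 2 and dmd1 library 1 (scores 0.59 and 0.48) against wild-type libraries 1 and 3 (-0.28 and -0.31) and dmd1 library 3 (-0.49), with dmd1 library 2 at 0.01. Among the 8 tested heat genes, 3 had their highest wild-type value in library 2 and their highest dmd1 value in library 1, namely OS03G0266900, OS05G0519700 and OS10G0419300. The same held for 34.3% of all tested rows. Between wild-type library 2 and dmd1 library 1 the log2 difference of OS03G0266900 was 2.19, and between the means of the other 4 libraries it was 1.94. For OS05G0519700 these differences were -0.24 and 0.86. These differences rest on 1 or 2 libraries per genotype with no test, dmd1 library 2 was counted with the other 4 although its score was near 0, and the sign for OS03G0266900 was fixed because its genotypes did not overlap.

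**Figure D4:**
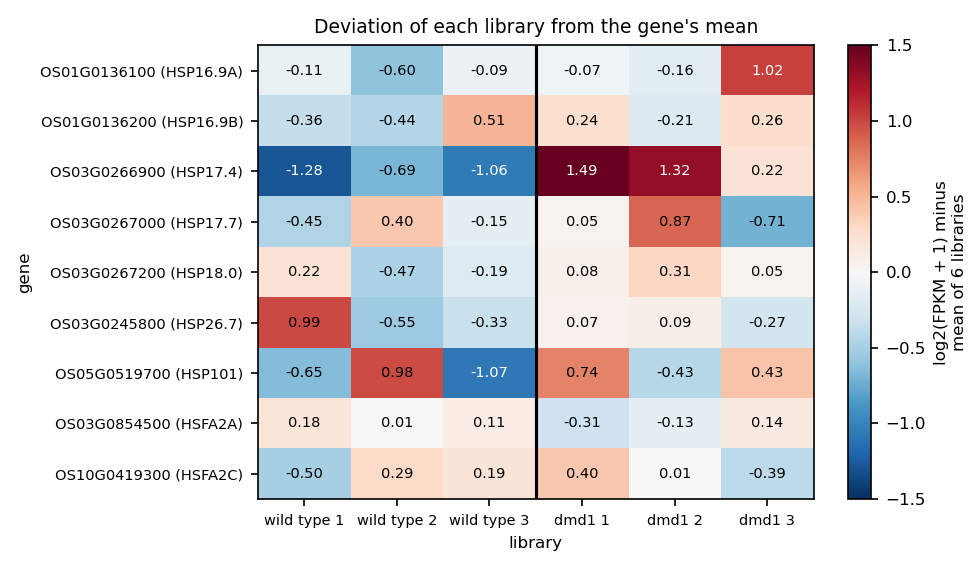
Deviation of each library from the gene's mean over 6 libraries, in log2(FPKM + 1) units, for the 9 genes (rows) in 3 wild-type and 3 dmd1 libraries (columns), red for above and blue for below the mean. OS03G0266900 is below its mean in the 3 wild-type libraries and above it in the 3 dmd1 libraries, while OS05G0519700 is highest in wild-type library 2 (0.98) and dmd1 library 1 (0.74).

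Likeness between genes was measured as the root mean square difference of log2(FPKM + 1), centred on each gene's mean over the 6 libraries, so that smaller values mean more alike. For OS03G0266900 the nearest heat gene among the members was OS03G0267000, at 0.99, which is little under its own spread of 1.10 around its mean. Among 52 tested genes of the wider heat lists, the nearest was the HSP70 gene OS11G0703900, at 0.40. For OS05G0519700 the nearest member was OS10G0419300, at 0.71 against its own spread of 0.75. Its nearest genes in the wider lists were OS06G0592500 (MBF1C, a transcriptional coactivator gene induced by heat) at 0.48 and the small heat shock protein gene OS03G0266300 (HSP17.9A) at 0.49. No pair of the 8 tested members was closer than OS03G0267200 and OS03G0854500, which differed by 0.33, more than the spread of either around its own mean (0.26 and 0.17).

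The rest of the heat and chaperone genes were taken from 5 lists with 63 genes, of which 52 were tested. Their symbols come from general knowledge of rice and were not checked against an annotation. Of 12 other small heat shock protein genes, 6 were tested and none was called, with a median log2 change of -0.17. The 2 with the smallest p were OS06G0219500 (HSP26.2) and OS04G0445100 (HSP23.2). OS06G0219500 measured 28.1, 79.1 and 21.93 FPKM in wild type and 20.3, 10.1 and 20.7 FPKM in dmd1, without overlap, and its log2 change was -1.13 ± 0.51 (SE, limma adjusted p = 0.19). OS04G0445100 measured 2.29, 6.28 and 0.849 FPKM in wild type and 0.222, 1.12 and 1.31 FPKM in dmd1 (log2 change -0.96 ± 0.52, limma adjusted p = 0.264). Its genotypes overlapped, wild-type library 2 was the highest, and without that library the log2 change was -0.44. The 6 genes that were not tested stayed at or below 2.26 FPKM in the 6 libraries. One of these, OS02G0758000 (HSP23.6), measured 0.119, 0.479 and 0.22 FPKM in wild type and 2.26, 0.731 and 0.944 FPKM in dmd1, without overlap. In the fit without the filter its log2 change was 0.81 ± 0.27 (SE, limma adjusted p = 0.134), and it is named here after its values were seen. The rest of the untested genes stayed at or below 0.465 FPKM.

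Organelle relatives of HSP101 gave no call under both limits. OS03G0426900 (CLPB-C, the chloroplast form) measured 10.5, 9.33 and 9.72 FPKM in wild type and 14.9, 14.6 and 14.5 FPKM in dmd1. Its 3 mutant values were nearly equal and all higher than wild type, and it passed the adjusted p alone (log2 change 0.53 ± 0.11, SE, limma adjusted p = 0.0298), as did 13.0% of all tested rows. That pass was lost when any 1 library was left out (adjusted p from 0.0507 to 0.115), with median-of-ratios size factors (0.0824) and with the replicate number as a block (0.0851). OS02G0181900 (CLPB-M, the mitochondrial form) measured 5.06, 5.17 and 6.14 FPKM in wild type and 3.75, 5.68 and 2.86 FPKM in dmd1, with no call (log2 change -0.37 ± 0.23, limma adjusted p = 0.316).

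Of 22 other heat factor genes 17 were tested, 1 of them called higher and 1 lower, with a median log2 change of 0.21. Among all tested rows 3.16% were called higher and 3.54% lower, and the median was 0.12. Of the 17 genes 2 passed the filter through 1 genotype alone. OS05G0530400 (HSFA4D, the rice SPL7 gene, whose loss gives spotted leaves) fell from 3.90 ± 0.773 to 0.511 ± 0.398 FPKM (SD, n = 3), a change by -1.72 ± 0.24 log2 units (SE, limma adjusted p = 0.0113). It measured 3.03, 4.49 and 4.19 FPKM in wild type and 0.948, 0.415 and 0.169 FPKM in dmd1, so it passed the filter through wild type alone and its fall is not independent of that filter. Without any 1 wild-type library it was not tested, and without dmd1 library 2 it was not called (limma adjusted p = 0.0577). OS07G0640900 (HSFB4B), of the class B factors that lack the usual activation domain, measured 2.98, 1.90 and 2.35 FPKM in wild type and 8.36, 5.26 and 4.70 FPKM in dmd1. It rose by 1.04 ± 0.24 log2 units (SE, limma adjusted p = 0.0397), close to both limits, and was not called when any 1 library was left out (log2 changes 0.82 to 1.18, adjusted p from 0.0557 to 0.115).

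Of the 17 genes for HSP70 and HSP90, the large ATP-driven folding chaperones, 1 was called higher and none lower, and the median log2 change was 0.12, that of all tested rows. The call was OS09G0482100, an HSP90 gene, at 158, 111 and 163 FPKM in wild type and 283, 293 and 343 FPKM in dmd1 (log2 change 1.10 ± 0.19, SE, limma adjusted p = 0.0188). Every mutant library lay above every wild-type library. Leaving out wild-type library 1 or 3 gave an adjusted p of 0.0642 and 0.051, leaving out dmd1 library 2 or 3 gave 0.0769 and 0.0557, and without wild-type library 2 its log2 change was 0.92. OS11G0703900, the HSP70 gene with the profile nearest to OS03G0266900, measured 489, 827 and 460 FPKM in wild type and 2249, 1422 and 956 FPKM in dmd1. It had no overlap between genotypes but missed the adjusted p (log2 change 1.34 ± 0.38, SE, limma adjusted p = 0.0649). With libraries scaled to equal FPKM totals it was called (1.55, limma adjusted p = 0.00573), and it is described here after its values were seen. In 11 of 13 alternatives OS11G0703900 was not called. These included median-of-ratios size factors (1.21, limma adjusted p = 0.0515), the replicate number as a block (0.0835) and leaving out any 1 library (0.0514 to 0.182). Of the 10 HSP70 genes, 4 had positive and 6 negative log2 changes, and of the 7 HSP90 genes 5 had positive and 2 negative ones, beside positive changes in 15443 of all 25474 tested rows. All but 1 of these 17 changes were uncalled, so the signs are given as a description. With median-of-ratios size factors 3 HSP70 genes had positive changes, and with equal totals 4, while the count for HSP90 genes was 5 under both.

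Of 10 other genes tied to the heat response, none was called higher and 1 was called lower, beside 3.54% called lower among all tested rows. Their median log2 change was 0.29, beside 0.12 for all tested rows. The fall was in OS03G0316200 (GOLS1, listed as a galactinol synthase gene), at 11.2, 18.0 and 18.1 FPKM in wild type and 5.13, 4.09 and 3.802 FPKM in dmd1 (log2 change -1.63 ± 0.22, SE, limma adjusted p = 0.00988). Without dmd1 library 2 its adjusted p was 0.0531. OS06G0592500 (MBF1C) measured 6.91, 12.7 and 4.96 FPKM in wild type and 20.8, 14.96 and 13.01 FPKM in dmd1, without overlap and without a call (log2 change 0.97 ± 0.33, SE, limma adjusted p = 0.104). It was called without wild-type library 2 (log2 change 1.30, limma adjusted p = 0.0331) and with libraries scaled to equal FPKM totals (1.16, limma adjusted p = 0.0136). In 10 of 13 alternatives it was not called, among them median-of-ratios size factors (0.85, limma adjusted p = 0.104). It is named here after its values were seen.

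**Figure D5:**
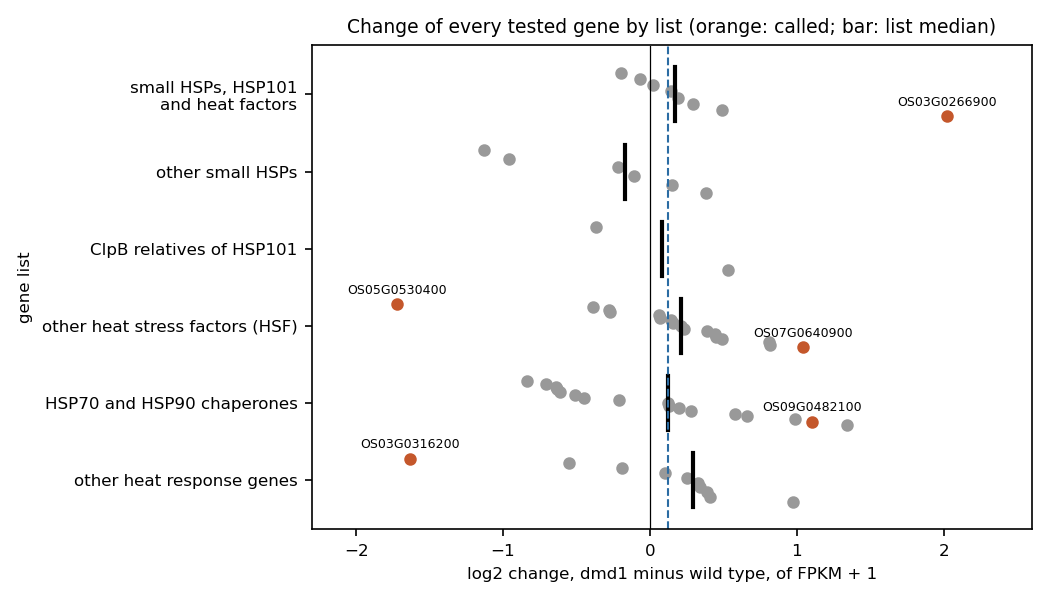
Log2 change of FPKM + 1 (horizontal axis, dmd1 minus wild type) of every tested gene in the member list and 5 wider heat and chaperone lists; points in orange were called, black bars are list medians and the dashed line is the median of all tested rows, 0.12. In each list most points lie between -1 and 1, and OS03G0266900 at 2.02 is the largest rise shown.

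The labels name the tissue as anther, and no other tissue is in the data, so tissue identity could not be tested. Markers of the tapetum were detected in both genotypes. All 6 were present in every library, with summed levels of 34157 to 34999 FPKM in wild type and 3330.2 to 8127 FPKM in dmd1, and 4 of the 6 were called lower. The sum rests on a few very abundant genes. TDR (OS02G0120500), a bHLH factor gene of the tapetum, averaged 933 FPKM in wild type and 881 FPKM in dmd1 and was not called (limma adjusted p = 0.828). C6 (OS11G0582500), which encodes a lipid transfer protein, ranged from 2.39 to 2039 FPKM among the dmd1 libraries, and no wild-type library was under 9472 FPKM. In whole anthers fewer tapetal cells and less RNA per cell cannot be told apart, and the part of this shift in the values of the heat genes was not tested. Libraries summed to between 808227 and 1287424 FPKM, and the number of rows at 1 FPKM or more from 24345 to 25389.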

How the data were processed

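The labels' protocols give total RNA from anthers, treated with DNase, passing an RNA integrity cutoff of 6.5. The authors deposited 1 table of FPKM values with 1 column per library. The submitters' processing notes name fastp, HISAT, RSEM and the build IRGSP-1.0. The sources used here state no tool version, annotation, strand setting or filter. Since the deposited FPKM are normalized, neither a count model nor counting intervals were used, and the absolute depth is unknown. Steps among low values gave approximate relative depths of 0.857 to 1.28 against wild-type library 1, with only 3.32% to 9.97% of low rows within 0.02 log2 units of the step.

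Rows with at least 1 FPKM in at least 3 of 6 libraries (25474) were transformed to log2(FPKM + 1) and fitted with limma 3.58.1 in R 4.3.3 (trend and robust options, no replicate block). Adjusted p-values are Benjamini-Hochberg values over all tested rows. Fold changes on this scale understate the change of low rows. The heat genes and lists were chosen with earlier results of these data known. Genes named from the wider lists were called ones, up to 6 per list by smallest p, or else the 2 with the smallest p. Replicates are biological, per the series' design text. No pair of libraries held identical values. The alternatives were other scalings, pseudocount, filter, spread model and replicate block, and leaving out libraries. Sequences and genome coordinates were not used here.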

Additional observations from a re-analysis of the deposited data

How the results depend on the processing

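OS03G0266900 kept its sign in 13 alternatives (log2 changes 1.78 to 2.42, limma adjusted p from 0.00318 to 0.0821) and lost its call in 5 of them, 4 that left out a single library and 1 chosen after seeing the data, which dropped the pair of wild-type library 2 with dmd1 library 1 (1.94, adjusted p = 0.058). These fits have fewer samples. The number of heat genes called higher was 0 to 1 without a single library and 0 without that pair. OS03G0267200 and OS05G0519700 kept their sign in all 13 alternatives (0.13 to 0.48 and 0.08 to 1.10) and were never called.

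Signs turned for uncalled genes. With equal FPKM totals, which moved the median of all rows from 0.12 to 0.29, OS03G0245800 was at 0.08 and OS03G0854500 at 0.00. With median-of-ratios size factors (median 0.01), OS10G0419300 was at -0.10. Without the pair of libraries OS01G0136200 was at -0.05 and OS10G0419300 at -0.03. Without a single library the log2 changes of OS03G0267000, OS03G0245800 and OS10G0419300 ran from -0.26 to 0.53, -0.36 to 0.41 and -0.23 to 0.21. The cause was not tested.

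Over all rows, equal totals gave 1491 rises. Without a single library there were 251 to 920 rises and 256 to 883 falls, from 806 and 903. Leaving out wild-type library 1 or 3 gave 337 or 408 rises, and leaving out dmd1 library 1 or 2 gave 425 or 251. Falls numbered 256, 575 and 396 when wild-type library 1, 2 or 3 was dropped, and 326 when dmd1 library 2 was. Other heat factors called higher numbered 0 with median-of-ratios size factors, 2 with a pseudocount of 0.1, 0 without the filter on low values, 0 without the pair and 0 to 0 without a single library. Those called lower numbered 0 without the pair and 0 to 1 without a single library, since OS05G0530400 then often missed the filter. HSP70 and HSP90 genes called higher numbered 2 with equal totals, 0 with median-of-ratios size factors, and 0 to 1 without a single library. Other heat response genes called higher numbered 1 with equal totals, 1 without the pair and 0 to 1 without a single library, and those called lower 0 to 1 without a single library. OS03G0266900, OS05G0530400 and OS03G0316200 were called under both scalings.

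The replicate block left the log2 change of OS03G0266900 at 2.02 (adjusted p = 0.0408) and kept the same 5 calls among the heat lists. Deviations of libraries with the same number correlated at -0.35, -0.01 and 0.35 for numbers 1, 2 and 3, and no label ties them, so the numbers were not taken as pairs. Rises numbered 646 and falls 749 with the block. The depth behind each FPKM value is unknown, so values near 1 FPKM, as for OS01G0136100 and OS01G0136200, are the least certain. The wild-type values of OS03G0266900, 1.53 to 2.81 FPKM, were also low. The size of its 5.86-fold rise in the mean is therefore uncertain.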
